A study of Homo sapiens with 16 samples.

Results

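Early phase P3 of the GRC1 cell line was compared with parental phase P0, the T24 bladder cancer cells from which the line was derived. T24 is an established human line of urothelial carcinoma, and P3 cells are T24 cells that had survived and regrown as colonies after repeated exposure to gemcitabine, in phase 3 of 15 of its establishment, a deoxycytidine analog that blocks DNA synthesis. Both groups carry the same T24 background and were grown in the same medium. All library titles carry the tag NT, which is not explained. The labels do not otherwise say whether gemcitabine was present when RNA was taken. GRC1 is a single resistant line among several that the study derived, so P3 is one population and not a set of independently selected ones. The comparison used 8 of the 16 libraries of the series, 4 of P0 and 4 of P3, and 12929 of the 39007 genes listed, those with a mean CPM (read count scaled to the library total) above 1 over the 8 libraries. The libraries are labelled as replicates, and nothing says that they came from separate cultures, so the p-values measure the spread between libraries, which may be technical. Values are given as the log2 of CPM plus 1, as deposited, and a difference of log2 values (P3 minus P0) is called a log2 fold change, which understates the change of genes with low levels.

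From the spacing of the lowest values, the depth of the libraries was estimated at 33.9 to 41.3 M counts, and a single count corresponded to 0.0242 to 0.0295 CPM, and 21519 to 22613 genes per library lay above 0. Even multiples of the step were 2.37 to 2.53 times as frequent as odd ones, so the number of independent fragments may be lower than this estimate. The median absolute difference between libraries was 0.06 to 0.1 within P0, 0.06 to 0.08 within P3 and 0.24 to 0.26 between the phases. Epithelial keratins were abundant in all 8 libraries, with KRT7 at 9.82 to 10.02 and KRT18 at 8.85 to 9.08, while KRT5, KRT20, CDH1, UPK1B and UPK3A lay at or below 0.1. Of the other uroplakins, which mark differentiated urothelium, UPK2 was at 0.47 to 1.12 and UPK1A and UPK3B at 0.5 or less. The pan-leukocyte marker PTPRC and the erythroid markers HBB and HBA1 were listed at 0 in all 8 libraries. Of the other leukocyte markers, CD14 was at 2.84 to 3.24 in P0 and 1.47 to 1.62 in P3, CD8A at 0.8 to 1.54 in the 8 libraries, and the rest at or below 0.46. Replicate 3 of P3 stood apart by trace values of fibroblast genes, with COL3A1 at 1.61 against 0.08 or less in the other 7 libraries, COL1A2 at 0.70, LUM at 0.57 and DCN at 0.20. The counts given next are therefore also reported without it. Replicate 2 of P0 had the highest value of the 4 P0 libraries for 31 of 47 interferon-stimulated genes (66.0%), against 33.7% over all tested genes.

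Several of the gene groups described here have well known regulators. Interferon-stimulated genes are switched on when interferons, or sensors of foreign nucleic acid, activate STAT and IRF factors, which bind the interferon-stimulated response element (ISRE) in promoters. Chemokines and IL6 are classical targets of NF-kappaB, the central factor of inflammatory signalling. Enzymes of cholesterol and fatty acid synthesis are controlled together by the SREBP factors, which are held in the endoplasmic reticulum by INSIG proteins when sterols are plentiful.

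Promoter sequences are shown for interferon-stimulated genes that moved in opposite directions, because they carry the same short element. The stretches come from RefSeq promoters on GRCh38.p14, lie before the RefSeq start site and are written along the strand of the gene, with matches to the ISRE core GAAANNGAA, on either strand, in capitals. The first 3 genes were higher in P3 and the last 3 were lower.
IFIT1, chr10:89392481-89392569, plus strand: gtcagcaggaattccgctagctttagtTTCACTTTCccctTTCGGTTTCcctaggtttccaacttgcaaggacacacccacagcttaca
IFIT3, chr10:89327836-89327924, plus strand: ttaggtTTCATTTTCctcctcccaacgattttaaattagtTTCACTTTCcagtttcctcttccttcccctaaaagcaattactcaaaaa
RSAD2, chr2:6865766-6865854, plus strand: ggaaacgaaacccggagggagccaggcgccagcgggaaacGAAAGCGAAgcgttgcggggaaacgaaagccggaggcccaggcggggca
IFI27, chr14:94110601-94110689, plus strand: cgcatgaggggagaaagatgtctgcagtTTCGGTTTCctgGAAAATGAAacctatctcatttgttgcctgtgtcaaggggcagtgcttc
IFITM1, chr11:313960-314039, plus strand: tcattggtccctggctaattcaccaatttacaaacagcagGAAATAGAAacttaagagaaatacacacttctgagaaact
IFI44L, chr1:78620335-78620423, plus strand: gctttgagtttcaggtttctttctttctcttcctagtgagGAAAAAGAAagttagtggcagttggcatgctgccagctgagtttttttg
Among interferon-stimulated genes with a promoter in the table, 10 of the 15 that rose and 9 of the 18 that fell held the ISRE core within 250 bases before the start site, against 7.06% of all 27305 promoters and 5.39% of those of tested genes. The element was thus found on both sides, which is a description of these windows and not of binding. MX1, which fell, held no match in its window.

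A second set shows the NF-kappaB site, in capitals, in promoters of inflammatory genes that were higher in P3. The site reads nearly the same on both strands, so that a single place can match on each.
CXCL1, chr4:73869275-73869364, plus strand: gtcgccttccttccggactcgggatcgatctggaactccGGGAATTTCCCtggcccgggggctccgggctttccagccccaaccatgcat
CXCL2, chr4:74099223-74099312, minus strand: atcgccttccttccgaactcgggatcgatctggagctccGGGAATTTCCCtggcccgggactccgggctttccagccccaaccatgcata
CXCL3, chr4:74038718-74038807, minus strand: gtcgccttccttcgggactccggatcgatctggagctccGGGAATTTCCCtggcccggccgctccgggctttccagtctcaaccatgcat
IL6, chr7:22727087-22727176, plus strand: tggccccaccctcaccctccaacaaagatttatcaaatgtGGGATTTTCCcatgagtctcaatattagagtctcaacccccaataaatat
TNFAIP3, chr6:137867164-137867253, plus strand: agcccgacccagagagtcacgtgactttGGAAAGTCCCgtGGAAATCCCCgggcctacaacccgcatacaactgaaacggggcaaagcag
Of the chemokine genes that rose and have a promoter in the table, 7 of 8 held the site, as did the 1 that fell and has a promoter there, against 5.05% of all promoters and 5.95% of those of tested genes. The site was in 12.8% of the promoters of genes at least 2-fold higher in P3 and in 10.5% of those at least 2-fold lower. CXCL1, CXCL2 and CXCL3 are neighbouring paralogs and their windows share most of their letters, so they do not count as separate observations. CXCL8 and TRAF1, which also rose, held no match in their windows. For the AP-1 site TGANTCA the shares were 8.16% of the promoters of genes at least 2-fold higher in P3, 6.85% of those at least 2-fold lower, 3.81% of those of all tested genes and 6.60% of all promoters.

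P3 differed from P0 in many genes by small amounts and in few genes by large ones. Among the gene lists examined, most members tested of the chemokine, pericellular protease and glycolysis lists rose, and most of the sterol and retinoid lists fell. At an adjusted p-value below 0.05 from limma with Benjamini-Hochberg adjustment and a change of at least 2-fold, 261 of the 12929 genes rose (2.02%) and 346 fell (2.68%), together 4.69%. Without replicate 3 of P3 the counts were 270 and 360. In all 607 of these genes the 4 libraries of P3 lay apart from the 4 of P0, as they did, over all tested genes, in 28.2% upward and 32.7% downward. Without the fold threshold, 4137 genes (32.0%) rose and 4860 (37.6%) fell, and the counts of list members below are to be read against these shares. The median absolute log2 fold change was 0.24 over all tested genes, and 80.8% of all tested genes changed by less than 0.5. A change of at least 4-fold was passed by 49 genes that rose and 48 that fell, and one of at least 8-fold by 8 and 5. Just inside the 2-fold threshold lay CDK6 (1.00) and just outside it CCNE1 (0.998), both of which drive the passage through G1.

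**Figure D1:**
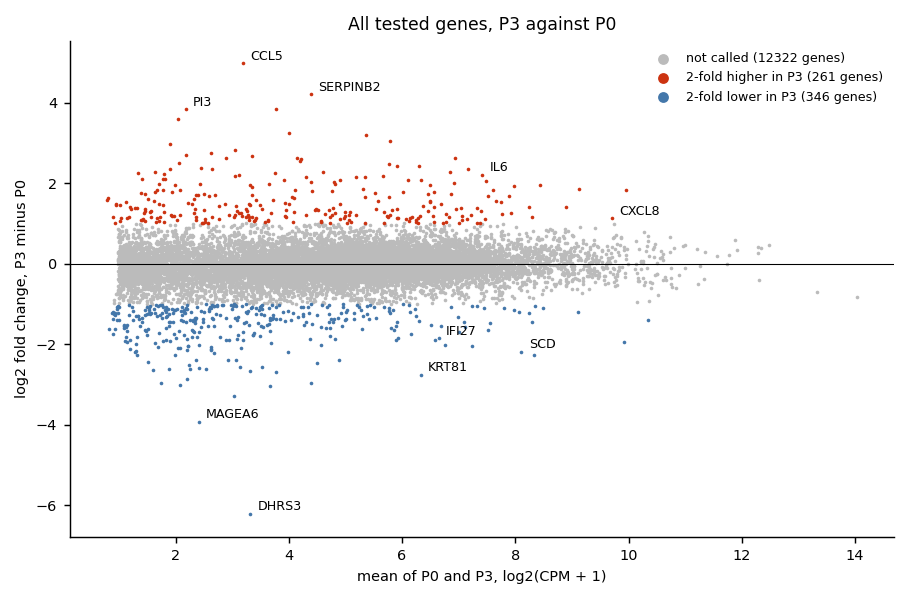
Log2 fold change of P3 against P0 (vertical axis) by the mean log2(CPM + 1) of both phases (horizontal axis) for the 12929 tested genes; red points are the 261 genes at least 2-fold higher and blue points the 346 at least 2-fold lower. CCL5 (4.97) stands farthest above and DHRS3 (-6.22) farthest below the line of no change.

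The gene that rose most was CCL5, a chemokine that attracts T cells (chromosome 17, 35871491 to 35880793 on GRCh38). Its log2 values were 0.61, 0.99, 0.86 and 0.35 in the P0 libraries and 5.60, 5.76, 5.69 and 5.66 in the P3 libraries. The lowest P3 library thus lay far above the highest P0 library, at a log2 fold change of 4.97 (standard error 0.095, limma adjusted p = 8.6e-23, higher in 4 of 4 libraries), or 77.2-fold on the scale of mean CPM. SERPINB2, an inhibitor of urokinase, followed with 2.17, 2.24, 2.59 and 2.14 in P0 and 6.53, 6.58, 6.42 and 6.43 in P3, a log2 fold change of 4.21 (standard error 0.084). The secreted elastase inhibitor PI3 was close to the detection limit in P0, at 0.40, 0.15, 0.30 and 0.22, and reached 4.15, 4.05, 4.06 and 4.13 in P3.

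Other genes among the 15 that rose most belong to different systems. ABCC9, the regulatory subunit of an ATP-sensitive potassium channel, rose from 0.26 ± 0.10 to 3.84 ± 0.08 (SD, n = 4 libraries). The immediate early transcription factor EGR1 had the widest spread of this set, with 2.15, 1.84, 2.67 and 2.89 in P0 and 5.28, 5.54, 6.03 and 5.66 in P3. Its groups nevertheless did not overlap (log2 fold change 3.24, standard error 0.21). The secreted glycoprotein STC1 rose by 3.19, the smooth muscle actin-binding protein TAGLN by 3.05, the receptor-like LRP3 by 2.96, the peptide hormone APLN by 2.83 and the adhesion molecule CEACAM1 by 2.75. KCTD15 (2.69), the TNF receptor adaptor TRAF1 (2.67), the Notch regulator DTX4 (2.62) and the antiviral radical-SAM enzyme RSAD2 (2.62) were also in the set.

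DHRS3, which reduces retinaldehyde to retinol, fell farther than any other tested gene. It lies on chromosome 1 from 12567910 to 12618210 on GRCh38. Its values were 6.39, 6.44, 6.41 and 6.47 in P0 and 0.34, 0.07, 0.26 and 0.16 in P3, so that mean CPM went from 85.1 to 0.158, a 540.0-fold difference (log2 fold change -6.22, standard error 0.084, limma adjusted p = 8.7e-26, lower in 4 of 4 libraries). The gene was detected but close to the detection limit in every P3 library.

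MAGEA6, a cancer-testis antigen normally made in germ cells, was the next in size. It had values of 4.28, 4.29, 4.41 and 4.53 in P0 and 0.56, 0.20, 0.47 and 0.56 in P3, and MAGEB17, of the same wider family, fell by 2.98. MAGEA6 has near-identical paralogs, so that part of its counts may belong to them. Other genes of the 15 that fell most were FAM65C (-3.30), the endothelial lipase LIPG (-3.05), the long noncoding RNA RP11-431J24.2 (-3.01), QPRT of NAD synthesis (-2.96), TMEM47 (-2.87), the hair keratin KRT81 (-2.76) and the circadian repressor BHLHE41 (-2.69). The GABA receptor subunit GABRA3 (-2.63), the teneurin TENM4 (-2.63), the membrane serine protease TMPRSS2 (-2.62) and the ubiquitin ligase subunit FBXO32 (-2.61) were also in the set.

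**Figure D2:**
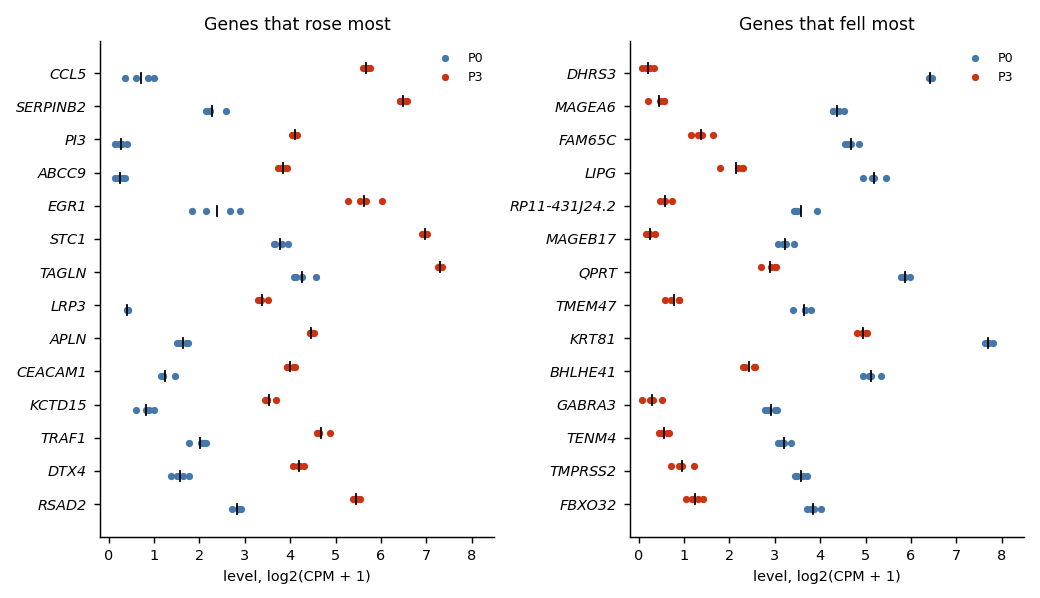
Log2(CPM + 1) in each library (points, 4 per phase) and the mean of each phase (black bars) for 28 of the 30 genes with the greatest changes at 2-fold or more, 14 in either direction. In each of the 28 genes the libraries of P3 and P0 form separate groups, with DHRS3 between 6.39 and 6.47 in P0 and between 0.07 and 0.34 in P3.

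Secreted signals of inflammation were higher in P3. Of 14 tested chemokine and chemokine receptor genes, 9 rose and 2 fell, 8 and 2 of them at least 2-fold, with a median log2 fold change of 1.14 against -0.02 over all tested genes. Besides CCL5, the neutrophil attractant CXCL3 rose, from 3.86, 3.88, 4.00 and 3.73 in P0 to 6.0, 6.11, 5.95 and 5.76 in P3. CXCL8, of the same class, rose from 9.15 ± 0.16 to 10.27 ± 0.02 (SD, n = 4 libraries), CXCL2 from 4.86 ± 0.12 to 6.23 ± 0.03 and CXCL1 from 10.00 ± 0.11 to 10.69 ± 0.07. The monocyte attractant CCL2 moved the other way, from 2.25, 2.05, 1.90 and 1.69 in P0 to 0.15, 0.38, 0.31 and 0.37 in P3. CXCL6 fell by 1.49 on the log2 scale, although it is a neighbour and relative of CXCL8.

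Of 24 tested genes of the IL6 family and JAK-STAT signalling, 15 rose and 3 fell (median 0.33). IL6 itself, an acute phase cytokine, had values of 6.19, 6.45, 6.35 and 6.25 in P0 and 8.45, 8.64, 8.53 and 8.46 in P3. That is a rise of 2.21 (standard error 0.077, limma adjusted p = 5.7e-18, higher in 4 of 4 libraries), or 4.67-fold on the scale of mean CPM. IL24, of the IL10 family, rose by 1.95, IL11, which like IL6 signals through gp130, by 1.84 and IL23A by 1.60, whereas SOCS1, a feedback inhibitor of JAK kinases, fell by 1.03. The study itself picked IL6, IL11, IL23A, IFNB1, IFIT1, IFIT2, IFIT3, FGF1, VEGFC, CDK6, CCND3 and CCNE1 for P3 from these libraries. For P0 it picked GATA3, FOXA1, APOBEC3G, IFI27 and IFITM1 from them. Its choices for later phases include LAMP1 for P7 and VIM, MMP1, MMP3 and STC1 for P15. It also described NT5E and CDA as rising from P0 to P15. The direction of all these genes here is therefore not independent evidence. By qRT-PCR the study reported genes related to P3. It also reported lower APOBEC3G and higher NT5E, STC1 and VIM by qRT-PCR in P15 than in P0.

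Of 28 tested NF-kappaB genes, 12 rose and 12 fell (median -0.04), against 32.0% and 37.6% over all tested genes. The members that rose at least 2-fold were TRAF1 (2.67), the deubiquitinase TNFAIP3, a feedback inhibitor of the pathway (1.56), and the cytokine IL32 (1.08). The lymphotoxin subunit LTB (-1.38) and TNFAIP2 (-1.08) fell. TNFAIP3 had values of 6.81, 6.99, 6.80 and 6.91 in P0 and 8.37, 8.45, 8.48 and 8.44 in P3.

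Interferon-stimulated genes moved in both directions. Of 47 tested members, 18 rose and 25 fell (median -0.22), against 32.0% and 37.6% over all tested genes. At least 2-fold, 6 rose and 4 fell, against 2.02% and 2.68% over all tested genes. Those that rose at least 2-fold were RSAD2 (2.62), IFIT2 (2.43), OASL (2.27), IFIT1 (2.08), IFIT3 (1.72) and ISG20 (1.33), which encode cytoplasmic antiviral effectors and an exonuclease. Those that fell were IFI44L (-2.03), IFITM1 (-1.87), IFI27 (-1.86) and MX1 (-1.57).

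The values by library show both sides. IFIT2 was at 5.15, 4.99, 5.10 and 5.13 in P0 and at 7.51, 7.54, 7.54 and 7.50 in P3. IFI27, a mitochondrial membrane protein and one of the most inducible members, was at 7.42, 7.92, 7.51 and 7.45 in P0 and at 5.76, 5.75, 5.66 and 5.70 in P3. IFITM1, which blocks entry of viruses at the cell surface, was at 5.69, 6.01, 5.65 and 5.64 in P0 and at 3.79, 3.94, 3.82 and 3.95 in P3. The libraries of the phases did not overlap in any of them. Replicate 2 of P0 was the highest of the P0 libraries in IFI27, IFITM1 and IFI44L, where it reached 4.25 against 3.10 to 3.17 in the others. Without that library, 18 members of the list rose and 25 fell.

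Of the genes of interferons themselves, all too low to be tested, IFNB1, IFNL1, IFNL2 and IFNL3 were nearly silent in P0 and detected in P3. IFNB1, a type I interferon, was at 0, 0, 0 and 0.08 in P0 and at 0.84, 1.23, 1.29 and 0.94 in P3. IFNL1, a type III interferon, was at 0, 0, 0.16 and 0.08 in P0 and at 1.71, 1.61, 1.53 and 1.34 in P3. In both genes every P3 library lay above every P0 library. IFNL2 and IFNL3 are near-identical copies, so that reads may be split between them. IFNL2 was at 0 in every P0 library and at 0.21, 0.23, 0.47 and 0.44 in P3. IFNL3 was at 0, 0.08, 0 and 0 in P0 and at 0.40, 0.32, 0.52 and 0.16 in P3. Their groups did not overlap either, at levels close to the detection limit. IFNE was at 0.28, 0.35, 0.23 and 0.35 in P0 and at 0.37, 0.46, 0 and 0.34 in P3, with overlapping groups. Of 14 tested genes for interferon receptors and nucleic acid sensing, 4 rose and 7 fell, and all changes were below 2-fold. Among them the DNA sensor cGAS (listed as MB21D1) rose by 0.46 and the adaptor MAVS fell by 0.40.

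**Figure D3:**
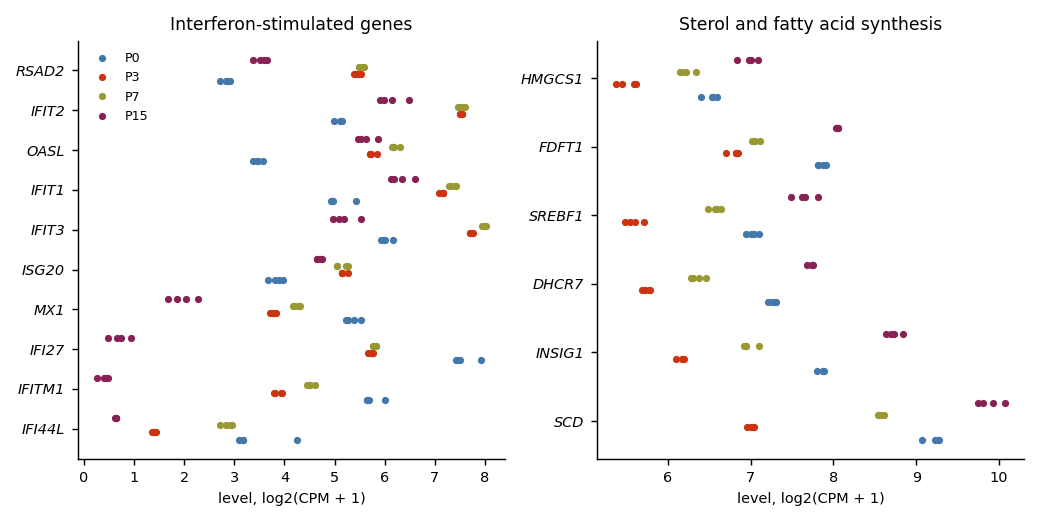
Log2(CPM + 1) in each library for 10 interferon-stimulated genes and 6 genes of sterol and fatty acid synthesis, with phases P0, P3, P7 and P15 in separate colours. RSAD2, IFIT2, OASL, IFIT1, IFIT3 and ISG20 lie higher in P3 and MX1, IFI27, IFITM1 and IFI44L lower, relative to P0, and all 6 sterol and fatty acid genes were lower in P3 than in P0.

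Genes of sterol and fatty acid synthesis were lower in P3 almost throughout. Of 24 tested members, 23 fell and 0 rose, the last being STARD4, a sterol transporter (0.04, limma adjusted p = 0.34), and 7 fell at least 2-fold, with a median of -0.63. Without replicate 2 of P0, STARD4 passed the test as a rise of 0.09. In 23 members no P3 library reached the level of a P0 library. Over all tested genes that held for 32.7%, and 37.6% fell and 32.0% rose. SCD, which introduces the double bond of oleate, had values of 9.27, 9.07, 9.23 and 9.26 in P0 and 7.01, 6.96, 7.04 and 7.03 in P3. INSIG1 fell by 1.70, DHCR7, which makes cholesterol from its last precursor, by 1.52 and the regulator SREBF1 by 1.43.

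Retinoid genes fell beyond DHRS3. Of 13 tested members, 3 rose, below 2-fold, and 9 fell, 4 of them at least 2-fold (median -0.34). STRA6, the receptor that takes up retinol, had values of 2.21, 2.41, 2.16 and 2.43 in P0 and 0.21, 0.14, 0.45 and 0.44 in P3. ALDH1A3, which makes retinoic acid, went from 8.35 ± 0.01 to 6.69 ± 0.04 and the retinol dehydrogenase RDH10 from 3.94 ± 0.11 to 2.46 ± 0.10 (SD, n = 4 libraries). Another 13 listed members did not pass the filter on low values.

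Glycolysis and hypoxia genes were higher. Of 29 tested members, 24 rose and 4 fell, 7 and 0 of them at least 2-fold, with a median of 0.48. Replicate 2 of P0 was the highest P0 library in 21 of the 29 (72.4%, against 33.7% over all tested genes) and replicate 2 of P3 the highest P3 library in 19 (65.5%, against 31.3%). Without the former 24 members rose and 4 fell, and without the latter 23 and 4. NDRG1, a hypoxia marker, had values of 5.94, 6.32, 5.82 and 5.93 in P0 and 8.35, 8.38, 8.35 and 8.29 in P3. HK2, which phosphorylates glucose, rose by 2.06 (standard error 0.054), the glucose transporter SLC2A3 by 2.02, the mitophagy receptor BNIP3 by 1.53 and the enolase ENO2 by 1.38.

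Of 22 tested genes of endoplasmic reticulum chaperones and the unfolded protein response, 18 rose and 0 fell, with a median of 0.38. DNAJC3 alone reached 2-fold (1.00), and it starts a run of 8 neighbouring genes on chromosome 13 that all rose (median 0.68). ERN1, the stress sensor IRE1, rose by 0.94 and the calcium-binding chaperone CALR by 0.57. ATF4 target genes divided, with 11 of 19 members higher and 8 lower. Replicate 2 of P3 was the highest P3 library in 15 of them (78.9%), and without it 11 rose and 8 fell. The transcription factor ATF3 (1.68) and PPP1R15A (1.67), a phosphatase subunit that ends the integrated stress response, rose, while the serine and asparagine enzymes ASNS (-1.29), PHGDH (-1.15) and PSAT1 (-0.85) fell. ASNS had values of 6.88, 6.75, 6.97 and 6.95 in P0 and 5.61, 5.63, 5.60 and 5.53 in P3. Of 30 tested NRF2 and glutathione genes, 20 fell and 6 rose (median -0.27), and only the transporter ABCC3 changed by 2-fold (-1.51). ABCB1 and ABCG2, the classical drug efflux pumps, fell by 0.81 and 0.74.

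**Figure D4:**
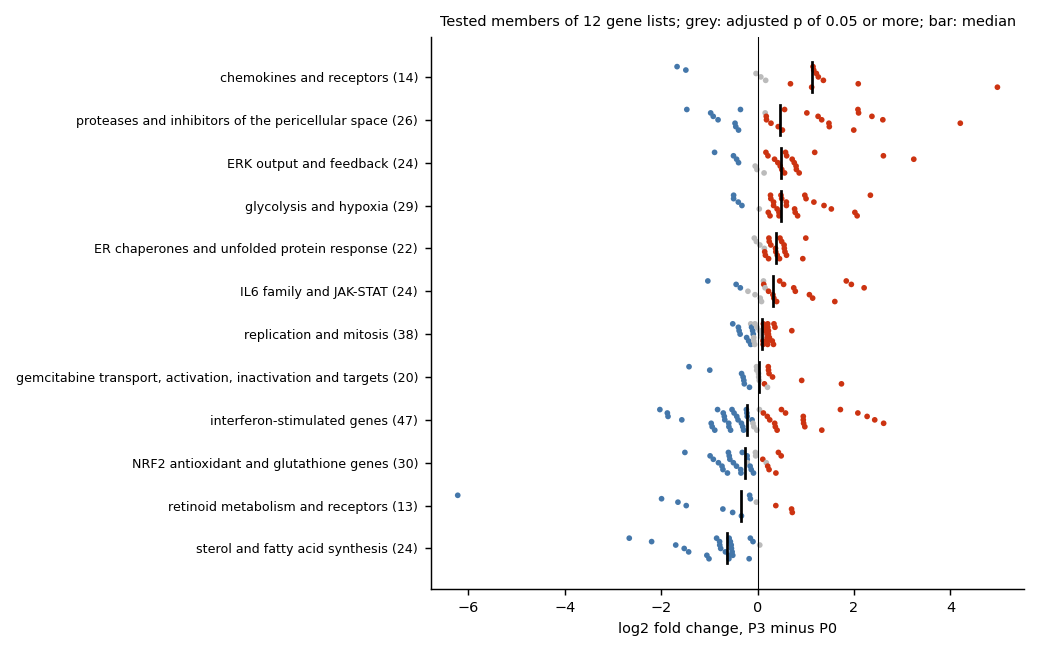
Log2 fold changes of P3 against P0 (horizontal axis) for the tested members of 12 gene lists (number tested in parentheses); red and blue points passed an adjusted p below 0.05, grey points did not, and black bars are medians. Sterol and fatty acid genes sit left of 0 (median -0.63) except STARD4 at 0.04, chemokines mostly right of it (median 1.14), and interferon-stimulated genes on both sides (median -0.22).

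Proteases and their inhibitors around the cell surface changed strongly. Of 26 tested members, 17 rose and 8 fell, 11 and 1 of them at least 2-fold (median 0.47). Besides SERPINB2, the inhibitors SLPI (2.60) and SERPINB7 (2.37) and the collagenase and stromelysin MMP1 (2.08) and MMP3 (2.10) rose. MMP1 had values of 2.64, 3.31, 2.80 and 2.76 in P0 and 5.03, 4.97, 4.90 and 4.94 in P3. In the extracellular matrix list, 16 of 31 members rose and 9 fell, led by the matricellular genes CTGF (2.42) and CYR61 (1.84) on one side and THBS2 (-2.11) and COL8A1 (-1.38) on the other. Among 15 tested integrin genes, ITGA6, a laminin receptor subunit, rose by 1.68, while the collagen receptor subunit ITGA11 fell by 2.59 and ITGB3, which pairs with alpha V, by 1.97. ITGA6 had values of 7.13, 6.95, 7.08 and 7.01 in P0 and 8.72, 8.74, 8.70 and 8.74 in P3.

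Markers of cell state moved in part. Among 15 tested luminal urothelial genes, 9 fell and 6 rose (median -0.43). The transcription factor ELF3 fell by 1.94, FOXA1 by 1.26 and GATA3 by 0.60, while KLF5 rose by 1.12. Among 13 basal genes, 9 rose and 3 fell, among them ITGA6 (1.68) and KRT17 (1.45) upward and KRT81 (-2.76) downward. KRT17 was low in both phases, with a mean CPM of 0.177 in P0 and 2.26 in P3. Another 10 members of each of the luminal and basal lists were not tested. Among the basal ones, KRT5, KRT14 and TP63 lay at 0.29 or less in all 8 libraries. FOXA1, a pioneer factor of the luminal program, had values of 4.81, 4.93, 4.92 and 4.86 in P0 and 3.70, 3.71, 3.58 and 3.50 in P3.

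In the list of epithelial to mesenchymal transition, 8 of 18 members rose and 8 fell. The mesenchymal filament gene VIM had values of 5.56, 5.57, 5.49 and 5.48 in P0 and 7.45, 7.52, 7.51 and 7.42 in P3 (log2 fold change 1.95, standard error 0.034), and CLDN4 (-1.33) and the splicing factors ESRP2 (-0.98) and ESRP1 (-0.94), which mark epithelia, fell. In replicate 3 of P3, the library with the fibroblast trace, VIM was at 7.51, within the range of the other 3. The 2 tested endothelial genes moved in opposite directions. CDH5, an endothelial cadherin, was at 2.59 to 2.97 in P0 and 0.13 to 0.38 in P3, and the receptor TIE1 at 1.5 to 1.96 and 3.25 to 3.45. Among endothelial genes too low to be tested, PECAM1 was at 0.78 to 1.08 in P0 and 0.15 to 0.26 in P3. ERG was at 0.47 to 0.64 in P0 and 0 to 0.16 in P3, and the rest lay at or below 0.26.

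Most ERK output genes rose, while growth factor genes moved in both directions. Of 24 tested ERK output and feedback genes, 17 rose and 4 fell, with a median of 0.49, led by EGR1 and by DUSP1 (2.61), a phosphatase of MAP kinases. DUSP5 rose by 1.19, while ETV4 fell by 0.89. Of 29 tested growth factor and receptor genes, 14 rose and 12 fell, 4 and 4 of them at least 2-fold (median 0.12). HBEGF, a ligand of the EGF receptor, had values of 5.62, 5.78, 5.77 and 5.69 in P0 and 7.93, 8.0, 8.02 and 7.97 in P3. FGF1 rose by 2.23, FGF2 by 1.56, TGFA by 1.43 and the lymphangiogenic VEGFC by 0.75, whereas the receptors PDGFRB and ERBB3 fell by 1.57 and 1.27. In the TGF-beta and BMP list, 13 of 29 members rose and 9 fell, among them the activin antagonists FST (2.16) and FSTL3 (1.66) upward and TGFBI (-1.86) and the signal transducer SMAD3 (-1.45) downward. The Wnt antagonist DKK1 rose by 1.3 and the ligand WNT7B fell by 1.03 in a list of 21 in which 8 rose and 10 fell.

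The genes that handle gemcitabine were examined one by one. The drug enters by nucleoside transporters, is phosphorylated first by DCK, is inactivated by CDA and DCTD and inhibits ribonucleotide reductase. Of 24 listed genes, 20 were tested, of which 7 rose and 7 fell (median 0.02), against 32.0% and 37.6% over all tested genes. NT5E, the surface nucleotidase CD73 (chromosome 6, 85449584 to 85495791 on GRCh38), was the only member that rose at least 2-fold. Its values were 5.56, 5.54, 5.66 and 5.57 in P0 and 7.37, 7.23, 7.36 and 7.33 in P3, a log2 fold change of 1.74 (standard error 0.035, limma adjusted p = 1.7e-22, higher in 4 of 4 libraries).

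The subunits of ribonucleotide reductase, a target of the drug, were higher in P3. RRM2 had values of 8.69, 8.66, 8.72 and 8.70 in P0 and 9.58, 9.66, 9.61 and 9.58 in P3. RRM1 rose by 0.31, TYMS by 0.22, CMPK1 by 0.23 and RRM2B by 0.14. DCK rose by 0.24 (standard error 0.049). Of the transporters, SLC29A1, the main equilibrative carrier, was at 6.33 ± 0.04 in P0 and 6.35 ± 0.06 in P3 (SD, n = 4 libraries), a difference of 0.02 that did not pass the test (standard error 0.034, limma adjusted p = 0.57). SLC29A2 fell by 1.42, from 2.79, 3.14, 2.61 and 2.83 to 1.25, 1.42, 1.31 and 1.70.

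The mitochondrial kinase TK2 fell by 0.99, the lysosomal carrier SLC29A3 by 0.33, the dNTP hydrolase SAMHD1 by 0.30, DCTPP1 by 0.28, NT5C2 by 0.28 and NT5C by 0.17. TK1 (-0.02), DCTD (0.02), NT5C3A (0.04), NME1 (-0.02) and NME2 (0.20) did not pass the test, and NME1 and NME2 lie in overlapping transcription units. SLC29A3 and NT5C lost their calls under quantile normalization (-0.21 and -0.13). NT5C also lost it without replicate 2 of P0 (-0.12) or replicate 3 of P3 (-0.14), and NME2 passed without replicate 4 of P0 (0.25) or replicate 2 of P3 (0.29). CDA and the concentrative carriers SLC28A1, SLC28A2 and SLC28A3 were below the filter. CDA was at 0.45, 1.03, 1.07 and 0.79 in P0 and at 0.97, 0.96, 0.39 and 0.96 in P3, with overlapping groups. Its mean was 0.53 in P7 and 2.09 in P15, whereas the study described a continuous increase from P0 to P15. The 4 tested APOBEC3 cytidine deaminases, paralogs that may share reads, all fell, APOBEC3G by 1.15, APOBEC3F by 0.97, APOBEC3C by 0.51 and APOBEC3B by 0.37.

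Of 38 replication and mitosis genes, 19 rose and 10 fell, all by less than 2-fold (median 0.10), with UBE2C (0.71) highest and PCNA (-0.52) lowest. Of 17 G1 genes, 11 rose and 5 fell, with CDK6 (1.00), CCNE1 (0.998) and CCND3 (0.91) up and the inhibitor CDKN2A (-0.90) down. Of 36 DNA repair genes, 12 rose and 13 fell, and of 25 p53 target genes 8 rose and 10 fell. Both are near the shares over all tested genes, of which 32.0% rose and 37.6% fell. Among the p53 target genes the stress cytokine GDF15 fell farthest, from 6.95, 7.03, 7.09 and 7.07 to 5.26, 5.32, 5.27 and 5.25. At least 2-fold, 2 p53 target genes rose, with PMAIP1 (1.22) highest, and GDF15 alone fell. In the BCL2 family the proapoptotic BMF fell by 2.40, and the antiapoptotic BCL2A1 (1.5) and the proapoptotic PMAIP1 (1.22) and BIK (1.21) rose.

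The shares of genes that rose and fell varied along the chromosomes. Of the tested genes, 11791 (91.2%) could be placed on GRCh38 with GENCODE. By chromosome, the median log2 fold change was highest on chromosome 13 (0.24, 116 of 214 genes higher) and lowest on chromosomes 15 (-0.19, 211 of 383 lower) and 14 (-0.18, 221 of 391 lower). DNA was not measured in these files.

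Chromosome 13 was divided. From 47 to 120 Mb, 98 of 118 tested genes (83.1%) rose and 6 fell, with a median of 0.55, whereas from 10 to 47 Mb 18 of 96 rose and 56 (58.3%) fell, with a median of -0.21. These boundaries were set after the values were seen, and the stretches were not tested. The median difference of the distal genes from the P0 mean was 0.54, 0.55, 0.52 and 0.55 in the 4 P3 libraries and between -0.01 and 0.01 in the P0 libraries, so that each library of P3 showed it. Only 9 of the distal genes rose at least 2-fold. On chromosome 9 up to 40 Mb, 97 of 131 genes (74.0%) fell and 12 rose, with medians of -0.40, -0.39, -0.38 and -0.35 in the P3 libraries. From 60 to 140 Mb 146 of 348 rose and 91 fell. CDKN2A lies in the stretch that fell, next to MTAP (-0.49), which starts a run of 14 neighbouring genes that all fell (21802636 to 32573184, median -0.67). On chromosome 13 a run of 14 neighbours that all rose ended at MYCBP2 (72708367 to 77327094, median 0.54), and the longest run of all was one of 15 genes on chromosome 19 that fell (10602457 to 11346518, median -0.27).

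**Figure D5:**
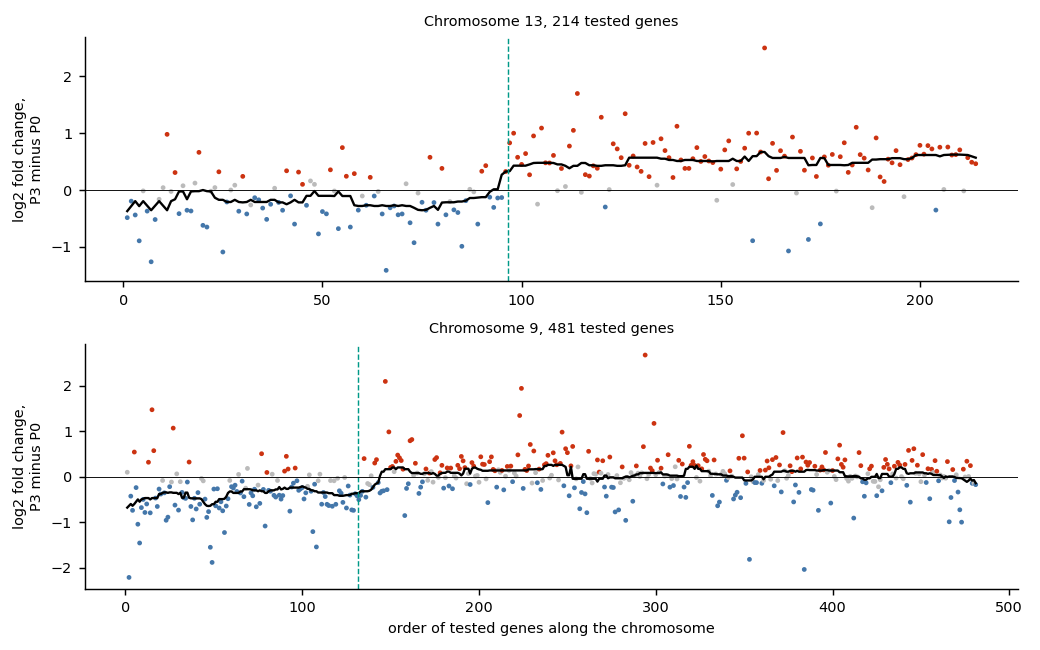
Log2 fold change of P3 against P0 (vertical axis) for tested genes in their order along chromosomes 13 and 9 (horizontal axis), with running medians over 21 genes (black) and the boundaries of the stretches (dashed). Genes beyond the boundary on chromosome 13 have a median of 0.55, and genes before the boundary on chromosome 9 a median of -0.36.

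The later phases of the same line are given beside P3 as levels, since the comparisons share libraries. The P3 level of some genes was seen again at P7 and that of others was not. RSAD2 was at 5.53 in P7 and 3.53 in P15, against 5.45 in P3 and 2.83 in P0, and P7 did not differ from P3 by the test (0.08, standard error 0.061, limma adjusted p = 0.27, n = 4 libraries). NT5E stood at 7.57 and 8.20 in P7 and P15 and VIM at 9.01 and 10.58, above their P3 levels of 7.32 and 7.48. DHRS3 was at 0.85 and 1.62, still far below its P0 level of 6.43.

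SERPINB2 and TAGLN were lower in P7 than in P3 by the widest margins among the genes that rose at least 2-fold. The mean of SERPINB2 went from 2.29 in parental cells and 6.49 in P3 to 1.67 in P7 and 8.5 in P15, and that of TAGLN from 4.26 and 7.31 to 3.92 and 3.13. IL6 was at 6.63 in P7 and 6.42 in P15, close to its P0 level of 6.31 and below the 8.52 of P3. Among genes that fell, QPRT was at 5.87 in P0, 2.91 in P3 and 5.72 in P7, ITGA11 at 3.71, 1.12 and 3.70, and SCD at 9.21, 7.01 and 8.57. The median of the distal chromosome 13 genes, as a difference from P0, was 0.90 in P7 and -0.09 in P15.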

How the data were processed

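RNA of 16 libraries of the GRC1 line, 4 each of phases P0, P3, P7 and P15, was sequenced after poly(dT) priming on an Illumina instrument. Per the submitters' notes and the methods, the authors aligned reads to GRCh38 with STAR 2.6.1a and counted them per gene with featureCounts. The deposited values are the log2 of CPM after adding 1, given to 2 decimals, from which whole counts could not be recovered, so no count test was run. Depth was estimated from the smallest steps above 0, and intervals of counting error were not given.

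Genes with a mean CPM above 1 over the 8 libraries of P0 and P3 were tested with limma (version 3.58.1, under R version 4.3.3). The model had a coefficient for each phase, used all 16 libraries so that they shared an estimate of the spread, and included a variance trend and Benjamini-Hochberg adjustment over all 12929 tested genes. Rose and fell mean an adjusted p below 0.05, and the 2-fold counts also need a log2 fold change of at least 1 in size. The script was tested on simulated data. Other filters, pseudocounts (0.1 and 5), normalizations, fold thresholds, fits with a replicate block and fits without each library were tried.

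The gene lists and the rules were chosen with earlier results of these data known. Genes were named by rule: the 15 that rose and the 15 that fell most among 2-fold calls without overlap, the genes the study names for P0 or P3, up to 5 members of each list with the largest change, and all gemcitabine genes. ISG20, MX1, CXCL1, CXCL8, SOCS1, STARD4, MTAP, MYCBP2 and the marker genes of other cell types were named after their values were seen. So were IFNL1, IFNL2, IFNL3, IFNE, KRT14 and TP63. Symbols that a spreadsheet had turned into dates (27 rows) were not named, and some genes that the rule selects are not reported here. Coordinates come from GENCODE on GRCh38 and promoters from RefSeq on GRCh38.p14. Motifs were searched on both strands in the 250 bases before each start site.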

Additional observations from a re-analysis of the deposited data

Results flagged for a closer look

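In 188 named genes, 376 groups of 4 libraries were examined for a library far from the other 3, and 31 were found. Chance alone gives about 1 in 20 such groups. All values are log2(CPM + 1).

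Replicate 3 of P3 stood apart by the fibroblast genes COL3A1 (1.61 against 0.08 or less), COL1A2 (0.70), LUM (0.57) and DCN (0.20), and also in OASL (5.84) and, on the low side, in CDA (0.39). Without that library, 270 genes rose and 360 fell at least 2-fold.

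Replicate 2 of P0 stood apart on the high side in the interferon-stimulated genes IFI44L (4.25 against 3.10 to 3.17), IFIT1 (5.42) and IFITM1 (6.01), and in APOBEC3G (6.63), CEACAM1 (1.46) and RP11-431J24.2 (3.94). On the low side it stood apart in INSIG1 (7.80) and PHGDH (8.40). Without that library, 268 genes rose and 345 fell at least 2-fold.

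The other P0 libraries that stood apart were replicate 1 in CXCL2 (4.68) and NME1 (5.81), and replicate 4 in WNT7B (6.74) and CD14 (3.24). Among the P3 libraries, replicate 1 stood apart in KCTD15 (3.68), RRM2B (5.45), IL32 (2.63) and KRT7 (9.97). Replicate 2 did so in ELF3 (0.46), ISG20 (5.26), PPP1R15A (8.47) and TRAF1 (4.87), and replicate 4 in ATF3 (3.21), ESRP2 (1.95), IFIT1 (7.09), TGFA (7.09) and TAP2 (5.40). In the genes in which P3 rose or fell at least 2-fold, no such library reached the range of the other phase.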

How the results depend on the processing

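The counts of genes at least 2-fold higher and lower, 261 and 346, stayed within 1.5 times under another filter, a pseudocount of 0.1 (357 and 515), quantile normalization (285 and 306), a median shift and a fit of the 8 libraries alone. They were 141 and 149 with a pseudocount of 5, 4137 and 4860 without a fold threshold, and 164 and 206 with limma's treat test against a 2-fold change. Leaving out each library in turn gave 256 to 270 genes higher and 345 to 360 lower.

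Between same-numbered libraries, the correlations of deviations from the phase means were 0.02, 0.225, 0.017 and 0.031 for replicates 1 to 4. The libraries numbered 2 thus shared a weak pattern, and the others nearly none. With the replicate number as a block, 259 genes were higher and 346 lower.

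Of 3084 values for 164 named genes, 3074 kept their side of the threshold, 5 lost significance and 5 gained it. Where either fit passed the test, 0 reversed direction. The direction of values that passed in neither fit was not compared. The losses were in KRT7, NT5C and SLC29A3 and the gains in NME2 and STARD4, and the cause was not tested. Of 1428 counts of list members, 1358 stayed within 1.5 times, and 60 of the 70 others came from the treat test, which calls fewer genes by construction. The rounding to 2 decimals limits genes with low values most.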

Other observations

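Gene lists not described above moved little. Of 35 lysosomal genes, 14 rose and 15 fell, all by less than 2-fold (median -0.04), with the cathepsin CTSS (0.83) and the membrane protein LAMP1 (0.72) highest and the cathepsin CTSC (-0.60) lowest. Of 18 annexin and S100 genes, 8 rose and 7 fell (median -0.05), with ANXA1 (0.98) highest and ANXA10 (-1.29) lowest. Of 18 antigen presentation genes, 8 rose and 5 fell (median 0.10), and CD74, the invariant chain of MHC class II (-1.23), fell at least 2-fold, whereas the peptide transporter subunit TAP2 rose by 0.47.

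Of the lists of other cell types, 2 leukocyte genes were tested, of which 1 rose and 1 fell, the latter being CD14 (-1.40). Among 3 fibroblast genes tested, 2 fell and 0 rose. No erythroid or plasma cell gene passed the filter on low values.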
